A study of Mus musculus with 29 samples.

Results

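The pressure-overload response that mouse hearts of 4 genotypes have in common is described here, from 29 libraries of polyadenylated RNA: 15 made 4 weeks after transverse aortic constriction (TAC) and 14 from unstressed hearts. TAC is a surgical narrowing of the aortic arch that raises the pressure against which the left ventricle ejects. The genotypes were wild type (labelled ntg; 4 unstressed and 4 TAC libraries), postnatal cardiac ablation of PKCδ (3 and 3), germline knockout of PKCε (3 and 4) and both ablations combined (4 and 4). All mice were labelled C57BL/6J and 12 weeks old. The labels name no sham operation, so the narrowing, the surgery and the weeks since cannot be told apart. They also do not name the promoter that drives the cardiac ablation. PKCδ and PKCε are protein kinases of the calcium-independent branch of the protein kinase C family, encoded by Prkcd and Prkce.

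Genes were chosen from a single fit of all 29 libraries that gave the TAC effect within each genotype and the mean of the 4 effects. A gene is called where its Benjamini-Hochberg adjusted p from edgeR's quasi-likelihood test was below 0.05. Of 13742 genes tested, 7827 were called on average over the genotypes, and 5756 of these had the same sign of effect in each genotype. A stricter set, here named the shared genes, was called in the same direction in each of the 4 genotypes separately. It held 1221 genes, 627 higher and 594 lower after TAC.

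An overloaded ventricle thickens as its cardiac muscle cells enlarge. They re-express genes of the fetal heart, such as those of the natriuretic peptides, while fibroblasts lay down collagen and other matrix proteins. Transcripts for fatty acid oxidation, for potassium channels and for the calcium release and uptake that drive each beat are known to decline in such hearts. Members of these programs are given below in that order.

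Gene counts ranged from 10515805 to 17301083 per library. The labels were checked against Prkcd and Prkce. CPM of single genes are counts scaled to the library's total after its correction by the trimmed mean of M values. For Xist, Y-linked transcripts and summed marker lists, CPM are scaled to the uncorrected total. Prkce stood at 33.3 to 42.9 CPM in 3 wild-type TAC libraries and at 24 CPM in the library labelled wild type, TAC, replicate 2. Among the libraries labelled combined ablation after TAC it stood at 8.21 to 11 CPM in 3 and at 31.5 CPM in replicate 2, which goes against that label. Leaving out both replicate 2 libraries gave 7914 genes called on average, 1355 shared genes and 2627 genes whose effect differed among genotypes (3210 with them, defined below), and none of the 249 named genes that was called on average changed direction. Prkcd cannot check its label: it stood at 16.3 to 18.7 CPM in unstressed PKCδ libraries and at 13.4 to 15.9 CPM in unstressed wild type, and the deleted part of the gene is not given in the sources used here. Sex labels were M in 23 libraries and F in 6, all 6 after TAC, and the transcripts go against many of them. Of the libraries labelled M, 7 unstressed and 3 TAC libraries held Xist at 1 CPM or more with Y-linked transcripts below 1 CPM, and 4 of the 6 labelled F held Y-linked transcripts at 1 CPM or more. Xist and Y-linked transcripts were both at or above 1 CPM in 10 TAC and 6 unstressed libraries. In PKCδ hearts Y-linked transcripts stood at 0 to 0.0753 CPM in unstressed and 25.7 to 36.4 CPM in TAC libraries. Xist stood there at 133 to 153 CPM and 43.9 to 64.2 CPM. In that genotype the TAC effect and sex composition therefore cannot be told apart. In 4 pairs of replicates the counts differed by little more than sampling noise, with a chi-square per degree of freedom below 3. The labels do not tie libraries to separate animals, so p-values measure the spread between libraries.

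Composition of the libraries also moved with TAC. The most abundant transcript, Rn45s (the 45S ribosomal RNA precursor) or in some libraries Myh6, took 9.91% to 14.1% of gene counts in unstressed and 4.87% to 8.595% in TAC libraries. Rn45s itself was lower after TAC by -1.13 ± 0.07 (log2 fold change ± SE, the form of all changes below), at an adjusted p of 3.4e-13. Reads aligned to more than 1 place made up 8.01% to 9.57% of reads in unstressed and 10.97% to 14.16% in TAC libraries. Neither range overlapped between the conditions, and their part in the results was not tested.

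On average over the genotypes 3857 genes were higher after TAC (28.1% of genes tested) and 3970 were lower (28.9%). With scaling to total counts in place of the trimmed mean of M values, the split was 5240 higher and 2710 lower, and the median change of all genes moved from -0.004 to 0.080. In wild type 2442 genes (17.8%) were higher and 2465 (17.9%) lower. The PKCδ ablation had 1768 (12.9%) higher and 1918 (14%) lower, the PKCε knockout 1998 (14.5%) and 1974 (14.4%), and the combined ablation 3021 (22%) and 2990 (21.8%). Genes called on average with the same sign in each genotype numbered 2840 higher (20.7%) and 2916 lower (21.2%). The shared genes made up 4.56% of genes tested for the higher and 4.32% for the lower direction, and with total-count scaling their split was 944 higher and 329 lower.

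The genotypes have libraries of their own, so each can be looked up for genes picked in the other 3. The single fit estimates each gene's spread over all 29 libraries, however, so calls in different genotypes are not independent. The share of all genes given beside them is not matched for expression or spread. The shares are therefore a description. Of 717 genes higher in each of PKCδ, PKCε and combined hearts, 627 were called higher in wild type (87.4%, against 17.8% of all genes). The share was 87% of 721 genes in the PKCε knockout, 69.1% of 907 in the PKCδ ablation and 65.7% of 954 in the combined ablation. For lower genes they were 83.4% of 712 in wild type, 83.7% of 710 in PKCε, 73.2% of 811 in PKCδ and 65.4% of 908 in the combined ablation. The sign was kept by 97.8% to 99.7% of the genes in the first 3 genotypes. In the combined ablation it was kept by 89.5% of the higher and 88.4% of the lower genes, and 12 and 13 genes were called there in the opposite direction.

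**Figure D1:**
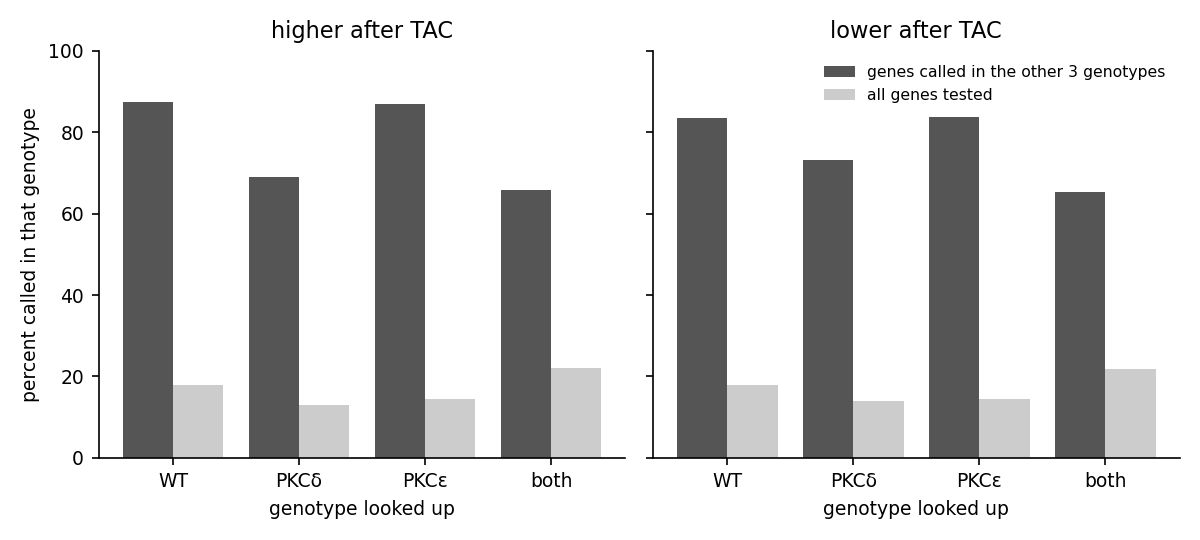
Percent of genes called in 1 genotype (vertical axis) among genes called in the same direction in the other 3 genotypes (dark bars) and among all genes tested (light bars), for genes higher (left) and lower (right) after TAC; WT is wild type and both is the combined ablation. Dark bars run from 65.4% to 87.4% and light bars from 12.9% to 22%.

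Changes of the shared genes were mostly small. The median change of the 627 higher genes was 0.64 and 154 of them (24.6%) were at least 2-fold higher. The 594 lower genes had a median of -0.49, and 74 (12.5%) were at least 2-fold lower, beside 3.92% of all genes with a change of 2-fold in either direction. Medians of the higher set were 0.60, 0.64, 0.63 and 0.63 in wild type, PKCδ, PKCε and combined hearts. Those of the lower set were -0.48, -0.50, -0.48 and -0.48. The set was chosen by calls in each of these genotypes, so the medians are a description. In 896 of the 1221 genes the 4 changes lay within 0.5 of each other. The median range of the 4 changes was 0.35 for shared higher and 0.27 for shared lower genes, beside 0.47 for all genes tested. The shared genes were also expressed above the average gene, at a median mean log2 CPM of 4.98 (higher) and 5.30 (lower) beside 3.81 for all genes tested.

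Whether the TAC effect differed among the genotypes was tested with an F test of the 3 interaction terms, which called 3210 genes (23.4%). Of the shared genes it called 79 higher (12.6%) and 99 lower (16.7%), a description too, since calls in each genotype chose them. Separation of single libraries was counted on the same libraries that chose the shared genes, so it is a description. All 15 TAC libraries lay above all 14 unstressed libraries for 361 genes (2.63%) and below them for 321 (2.34%), and 318 and 278 of these were shared genes. With total-count scaling those counts were 576 and 140.

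For the gene lists below, the background on average was 28.1% of all genes called higher and 28.9% lower. Called in each of the 4 genotypes were 4.56% higher and 4.32% lower. Members of all lists were chosen with earlier results of these data known, so their counts are a description. Most genes of the stress and fetal program rose. Of 24 such genes tested, 20 were higher and 1 was lower on average, 13 were higher in each genotype, and their median change was 1.19 beside -0.00 for all genes tested. The 13 were Nppa, Nppb, Acta1, Ankrd1, Ankrd23, Xirp1, Xirp2, Csrp3, Des, Tnfrsf12a, Gdf15, Rcan1 and Mybpc2.

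Promoter sequence is shown for 4 shared higher genes of the muscle cell, because each holds short motifs long known from muscle promoters. The windows are the 250 bases before an annotated start, from RefSeq (GRCm38.p6), read on the gene's strand: Acta1 at chr8:123894776-123895025 (minus strand), Ankrd1 at chr19:36119845-36120094 (minus), Nppb at chr4:147985650-147985899 (plus) and Myl3 at chr9:110763428-110763677 (plus). Capitals mark the M-CAT motif CATTCC, which TEAD factors are known to bind, or its complement GGAATG, and the CArG box, the site of serum response factor.
Acta1: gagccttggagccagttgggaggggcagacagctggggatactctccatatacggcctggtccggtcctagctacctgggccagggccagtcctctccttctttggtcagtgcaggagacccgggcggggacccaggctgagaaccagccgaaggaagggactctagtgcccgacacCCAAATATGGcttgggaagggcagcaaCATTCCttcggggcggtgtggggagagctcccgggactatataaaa
Ankrd1: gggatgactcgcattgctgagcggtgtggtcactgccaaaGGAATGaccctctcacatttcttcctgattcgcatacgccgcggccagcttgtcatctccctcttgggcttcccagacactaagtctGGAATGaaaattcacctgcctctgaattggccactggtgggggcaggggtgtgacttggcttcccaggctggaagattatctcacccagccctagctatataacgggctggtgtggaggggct
Nppb: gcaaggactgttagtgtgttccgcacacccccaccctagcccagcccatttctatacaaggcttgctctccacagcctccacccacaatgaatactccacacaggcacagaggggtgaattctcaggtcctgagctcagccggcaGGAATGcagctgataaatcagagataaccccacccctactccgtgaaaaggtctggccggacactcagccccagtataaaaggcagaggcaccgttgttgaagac
Myl3: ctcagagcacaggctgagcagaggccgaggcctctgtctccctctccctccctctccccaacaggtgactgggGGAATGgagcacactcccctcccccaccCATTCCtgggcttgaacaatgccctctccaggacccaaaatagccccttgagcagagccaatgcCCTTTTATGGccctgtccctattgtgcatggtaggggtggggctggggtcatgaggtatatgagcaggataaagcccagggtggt
The M-CAT motif began 46 bases before the start of Acta1 and 105 before that of Nppb, and a CArG box began 73 bases before that of Acta1. The start used for the Nppb window lies inside the gene span given for Nppb below, and so does its motif. Ankrd1 held 2 M-CAT motifs. Myl3, which encodes a ventricular myosin light chain, held 2 and a CArG box. Among 13794 windows of 300 bases (250 before the start to 50 after) at genes tested, 12.5% held CATTCC on either strand and 1.34% a CArG box. CATTCC was held by 13.9% of the windows of shared higher and 16.2% of those of shared lower genes. For the CArG box the shares were 1.75% and 1.85%. A link of these motifs to the direction of change was not tested. Since 78.7% of genes tested had a window, and shared lower genes such as Acsl1 and Slc25a20 held CATTCC too, the matches are a description of these windows.

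Nppa encodes atrial natriuretic peptide, a hormone that promotes salt loss and relaxes vessels, and lies at chr4:148000722-148002074. Its level ran from 53.3 to 160 CPM (median 108) in unstressed and from 472 to 7157 CPM (median 1715) in TAC libraries. The conditions did not overlap, the lowest TAC value being PKCδ replicate 1. The mean change was 4.34 ± 0.26, or 20.2-fold, at an adjusted p of 6.7e-12. Its size differed among genotypes (interaction adjusted p = 0.0039), from 2.76 in PKCδ over 3.71 in wild type and 4.78 in PKCε to 6.10 in combined hearts. Without strand, 61.5% of the exonic bases of Nppa are shared with another annotated gene, so its counts are uncertain.

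Nppb, the gene of B-type natriuretic peptide (chr4:147985786-147987205), ran from 39.2 to 164 CPM (median 97.2) and from 286 to 1045 CPM (median 412) after TAC. None of the unstressed libraries reached the TAC range. The change was 2.21 ± 0.17 (adjusted p = 3.3e-10), and none of its exonic bases are shared with another gene.

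Ankrd1, a stretch-responsive nuclear and sarcomeric protein, ran from 565 to 2057 CPM (median 910) in unstressed and from 2776 to 6861 CPM (median 4333) in TAC libraries. This was among the most even of the large responses: 1.93 in wild type, 1.93 in PKCδ, 2.31 in PKCε and 2.06 in combined hearts, with a mean of 2.06 ± 0.17 and an interaction adjusted p of 0.89. Acta1, the skeletal muscle actin of the fetal heart, rose by 3.58 ± 0.24 (adjusted p = 4.2e-11), from a median of 389 to 5241 CPM. The size of its rise differed among genotypes (interaction adjusted p = 0.029, and 0.074 without both replicate 2 libraries). Its ranges touched, since combined unstressed replicate 1 stood at 1945 CPM and PKCε TAC replicate 4 at 1907 CPM.

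Other shared stress genes encode parts of the sarcomere's edge and signals of strain. Xirp2, an actin-binding protein of intercalated discs, rose by 1.46 ± 0.08 on average, from 0.86 in wild type to 2.54 in combined hearts (interaction adjusted p = 1.9e-05). Tnfrsf12a, the receptor of the cytokine TWEAK, rose by 1.94 ± 0.10, from 1.19 in wild type to 2.54 in PKCε hearts (interaction adjusted p = 0.002). Des, the intermediate filament desmin, rose by 0.86 ± 0.06, and Rcan1, a calcineurin inhibitor that is itself a calcineurin target, by 1.39 ± 0.08. Libraries of the 2 conditions were separate for all 4. Gdf15, a secreted stress cytokine, rose by 2.85 ± 0.35 with overlapping libraries.

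Myh7, the slow β-myosin heavy chain, was called on average (2.98 ± 0.20) and is not a shared gene. Unstressed libraries held 160 to 204 CPM in wild type, 129 to 146 CPM in PKCδ and 170 to 196 CPM in combined hearts. Unstressed PKCε libraries held 2375, 3429 and 4295 CPM. After TAC the wild-type libraries held 939 to 3866 CPM and the PKCε libraries 2853 to 6178 CPM. The TAC change was 3.61 in wild type, 2.75 in PKCδ, 5.26 in combined hearts and 0.27 (adjusted p = 0.63) in PKCε, with an interaction adjusted p of 3.4e-05. Myh6, the α-myosin chain of the adult mouse ventricle, was lower by -0.16 ± 0.04 on average (adjusted p = 0.0012), with called changes in PKCε (-0.25) and combined hearts (-0.38). With total-count scaling Myh6 was at -0.08 and was not called.

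**Figure D2:**
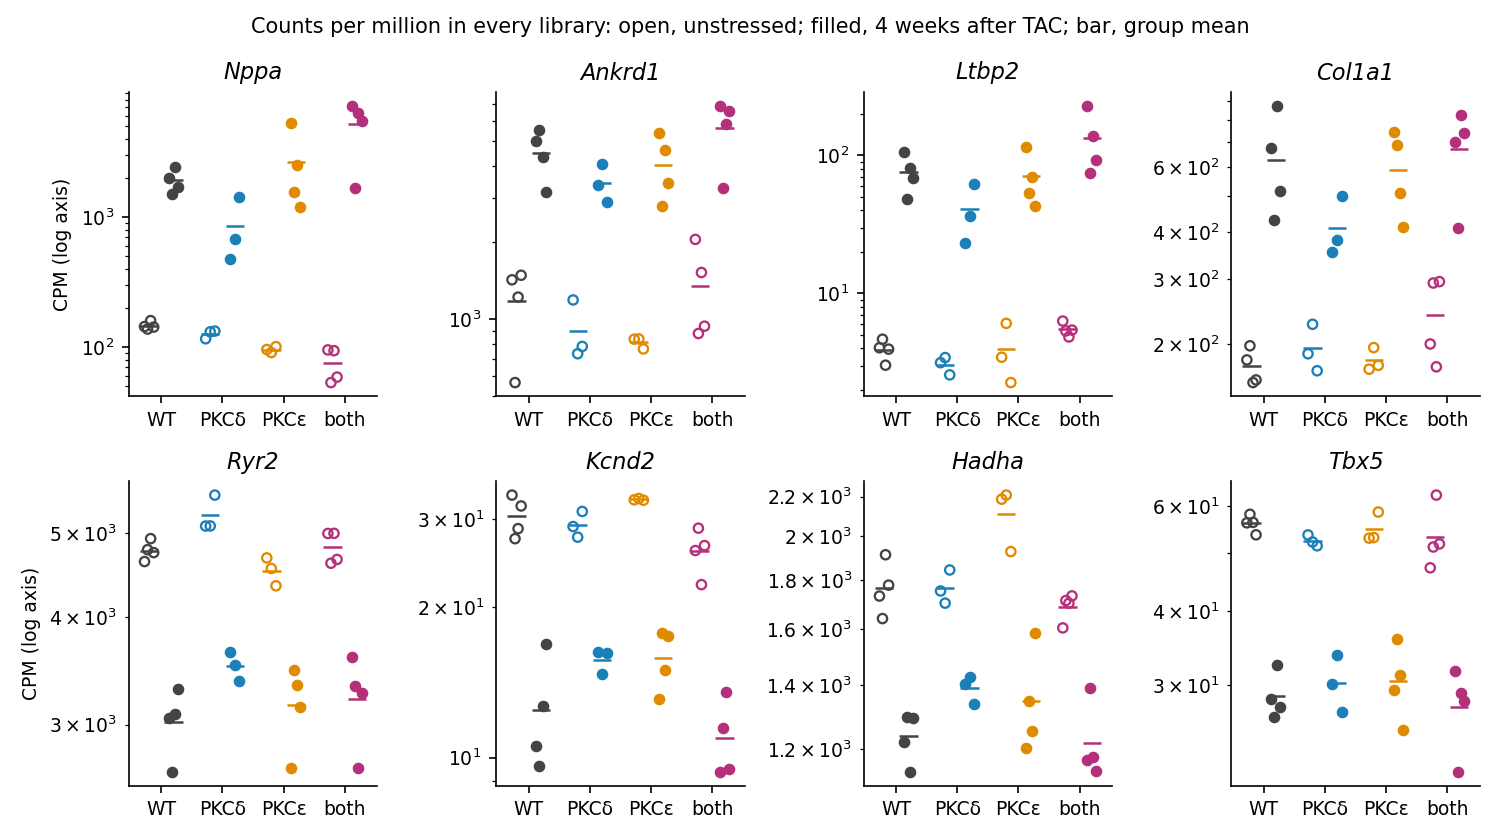
CPM (log axis, a separate scale per panel) of 8 genes in each of the 29 libraries, by genotype (WT wild type, PKCδ ablation, PKCε knockout, both the combined ablation); open points are unstressed libraries, filled points TAC libraries and bars group means. In each panel the TAC libraries lie apart from the unstressed libraries, with Nppa higher by 20.2-fold and Ryr2 lower by 1.5-fold on average.

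Most of the listed matrix genes rose. All 34 tested genes of fibrillar and network collagens and of the enzymes that modify them were higher on average, 17 of them in each genotype, with a median change of 0.87. Of 35 matricellular and elastic-fibre genes 30 were higher and 2 lower, 18 were higher in each genotype, and the median was 0.94. These counts were 34 and 30 without both replicate 2 libraries named above. Proteoglycans had 12 of 17 higher and 1 lower, with 2 higher in each genotype, at a median of 0.38.

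Col1a1, the main chain of type I collagen (chr11:94936224-94953042), ran from 158 to 295 CPM (median 185) in unstressed and from 355 to 875 CPM (median 516) in TAC libraries. The conditions were separate, and the change was 1.52 ± 0.13 (adjusted p = 1e-09). Col3a1 rose by 1.30 ± 0.15 on average, but its 0.83 in PKCδ hearts was not called (adjusted p = 0.058). The basement-membrane chain Col4a1, at 721 to 994 CPM in unstressed and 1440 to 1883 CPM in TAC libraries, rose by 0.92 ± 0.05, with the 4 changes within 0.23 of each other. Col8a1, a short-chain collagen of vessel walls, rose by 2.21 ± 0.12, Col12a1, which binds along collagen fibrils, by 3.04 ± 0.25, and Col8a2 by 3.27 ± 0.31. Among the crosslinking enzymes Loxl1 (1.22) and Loxl3 (1.27) were shared, while Lox (2.23) was not called in PKCδ hearts (1.83, adjusted p = 0.067).

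Ltbp2, a protein of elastic microfibrils from the latent TGF-β binding family, had the widest gap between the conditions of any tested gene whose log2 CPM averaged 2 or more. It lies at chr12:84783212-84876558. Unstressed libraries held 2.26 to 6.31 CPM (median 4) and TAC libraries 23.2 to 229 CPM (median 70.2), so that the nearest libraries were 1.87 apart on the log2 scale. The change of 4.19 ± 0.24 (18.3-fold, adjusted p = 3.4e-12) was 4.26, 3.73, 4.18 and 4.60 in wild type, PKCδ, PKCε and combined hearts, with an interaction adjusted p of 0.79. Its relative Ltbp1 went the other way in each genotype (-0.39 ± 0.04), and Ltbp3 (0.88) and Ltbp4 (0.67) were shared higher genes.

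Cilp, a cartilage intermediate layer protein made by fibroblasts, ran from 7.14 to 18.5 CPM (median 10.7) and from 59.8 to 256 CPM (median 115) after TAC. Its nearest libraries were 1.69 apart, and its change of 3.68 ± 0.18 held to between 3.22 and 3.89 in the genotypes. Thbs4 and Thbs1, thrombospondins, glycoproteins of the matrix, rose by 3.88 ± 0.24 and 2.44 ± 0.23. Postn, the matricellular protein periostin of activated fibroblasts, rose by 2.59 ± 0.21, from a median of 20.4 to 131 CPM, with 1.47 in PKCδ hearts as the lowest of the 4 changes (interaction adjusted p = 0.06).

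Several smaller matrix transcripts rose as steeply. Comp, a pentameric thrombospondin, rose by 3.19 ± 0.32, and Fmod, the proteoglycan fibromodulin, by 3.79 ± 0.35 from a median of 1.08 to 16.2 CPM. Wisp2, a matricellular protein of the CCN family, rose by 2.22 ± 0.22 with a spread of 2.04 to 2.37 over the genotypes. Libraries of the 2 conditions overlapped for Comp and Fmod. Fn1 (0.64) and Fbn1 (0.76), the fibronectin and fibrillin-1 genes, were called on average and not in PKCδ hearts, where they stood at 0.15 and 0.09.

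Enzymes that cut the matrix and their inhibitors had 13 of 22 higher and 2 lower on average. Timp1, an inhibitor of metalloproteinases (chrX:20870166-20874737), ran from 1.51 to 4.84 CPM (median 2.24) in unstressed and from 7.07 to 33.8 CPM (median 11.6) in TAC libraries. It rose by 2.38 ± 0.22 and its libraries were separate, while Timp2 (0.11), Timp3 (0.22) and Timp4 (0.01) were not called on average. Adamtsl2, a secreted protein of microfibrils, rose by 2.22 ± 0.13 and Adamts8, a metalloproteinase, by 2.20 ± 0.20. Mmp2 (0.75) and Mmp14 (0.92) were shared higher genes and Mmp15 (-0.49) a shared lower gene.

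Members of TGF-β signalling moved both ways. Of 22 genes 15 were higher and 4 lower on average, with a median of 0.27. Tgfb2 stood at 8.43 to 11.4 CPM (median 10.2) in unstressed and 15.8 to 42.8 CPM (median 20.9) in TAC libraries, without overlap. It rose by 1.22 ± 0.10, with 0.97, 0.94, 1.15 and 1.84 in wild type, PKCδ, PKCε and combined hearts (interaction adjusted p = 0.031). Tgfb3 (0.75 ± 0.05), the activin chain gene Inhbb (1.37 ± 0.18) and Fstl3 (2.13 ± 0.18), a secreted activin antagonist, were shared as well. Tgfbr3, the co-receptor betaglycan, fell in each genotype (-0.61 ± 0.05). Smad2 (-0.35), Smad3 (-0.38) and Smad4 (-0.19) fell on average and were not shared genes. Smad2 was at 0.04 in combined hearts, Smad3 at 0.06 in wild type and Smad4 at -0.07 in PKCδ, and none of these changes was called. Fstl3 shares 47.3% of its exonic bases with another gene.

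Growth factors and their receptors split: 16 of 32 were higher and 6 lower on average, and all 6 were lower in each genotype. The 6 were Angpt1 (-1.34 ± 0.14), an angiopoietin that steadies vessels, Ctf1 (-1.22 ± 0.10), the cytokine cardiotrophin-1, Fgf16 (-1.04 ± 0.08), Igf2 (-0.65 ± 0.06), Lifr (-0.62) and Fgf1 (-0.51). Hbegf, a heparin-binding ligand of the EGF receptor, rose in each genotype by 0.61 in wild type, 1.07 in PKCδ, 1.11 in PKCε and 2.35 in combined hearts, and these differed (interaction adjusted p = 0.00048). Igfbp6 (1.19), Igfbp7 (1.08) and Vegfa (0.43) were the other shared higher members.

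Structural and protein-folding genes rose by less. Of 35 cytoskeletal and adhesion genes 24 were higher and 4 lower on average, 9 were higher in each genotype, and the median was 0.34. Flnc, the muscle filamin, ran from 924 to 1394 CPM (median 1059) and from 1645 to 2631 CPM (median 1937) after TAC, and rose by 0.84 ± 0.05 without overlap. Vim (0.80 ± 0.06), Actn1 (0.62), Zyx (0.46), Myh9 (0.45) and Tln1 (0.39) were also shared. Among 35 chaperone and ER-stress genes 21 were higher and 9 lower, a count that was 24 and 3 with total-count scaling. The small heat shock proteins Hspb1 (1.05 ± 0.08) and Hspb7 (0.78 ± 0.06) rose in each genotype, and Canx, a chaperone of the endoplasmic reticulum, fell in each (-0.33 ± 0.04). Immediate early genes and ERK feedback genes had 19 of 30 higher, with Junb (1.26), Jund (0.76) and Nr4a3 (2.40 ± 0.24) in each genotype. Jund shares 52.6% of its exonic bases with another gene.

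**Figure D3:**
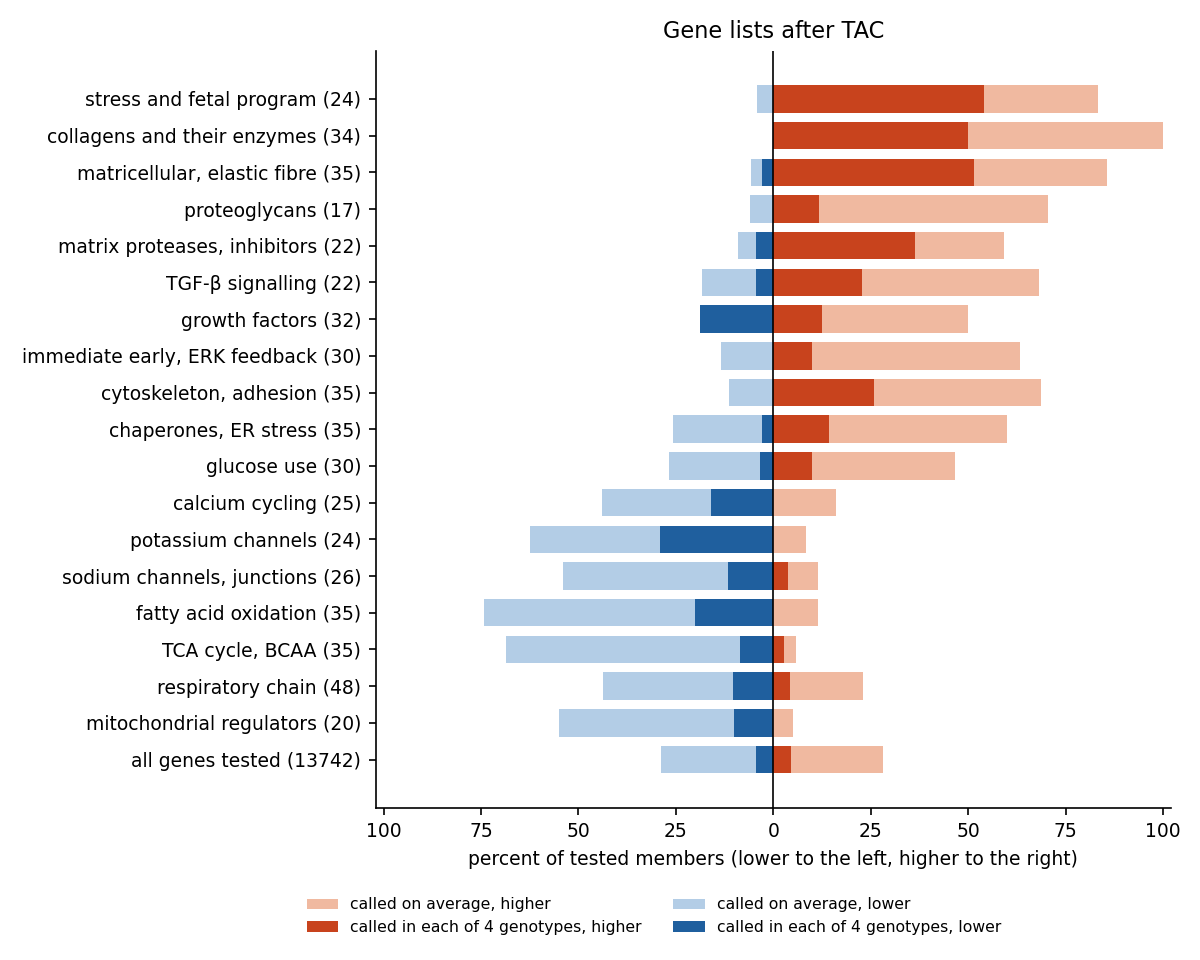
Percent of tested members (number in brackets) of 18 gene lists, and of all genes tested, called higher (to the right) or lower (to the left) after TAC; pale bars are calls on average over the genotypes and dark bars calls in each of the 4 genotypes. Collagens reach 34 of 34 higher, and fatty acid oxidation has 26 of 35 lower.

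Ion channel and calcium-handling transcripts fell in a subset of genes. Of 24 potassium channel genes 15 were lower and 2 higher on average (13 and 5 with total-count scaling), 7 were lower in each genotype, and the median was -0.36. Kcnj2, the inward rectifier that sets the resting potential (chr11:111066164-111076825), ran from 26.4 to 58.4 CPM (median 39) in unstressed and from 12.8 to 23.4 CPM (median 17.6) in TAC libraries, without overlap. It fell by 1.21 ± 0.07 on the log2 scale (adjusted p = 7.1e-14), by 1.52 in wild type, 0.98 in PKCδ, 1.39 in PKCε and 0.94 in combined hearts (interaction adjusted p = 0.048, and 0.13 without both replicate 2 libraries). Kcnd2, a transient outward channel, went from 22.2 to 33.6 CPM in unstressed to 9.37 to 17.7 CPM in TAC libraries, again without overlap (-1.12 ± 0.07, interaction adjusted p = 0.33).

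Other shared potassium channel genes included Kcnj3 (-1.07 ± 0.09) and Kcnj5 (-0.89 ± 0.05), the 2 subunits of the channel opened by acetylcholine, Kcnj12 (-0.62) and Abcc9 (-0.79 ± 0.05), the sulfonylurea receptor of the ATP-gated channel. Chrm2, the muscarinic receptor that opens the Kcnj3 and Kcnj5 channel, was lower in each genotype too (-0.66 ± 0.05). Kcnj3 shares 31.1% of its exonic bases with another gene.

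Of 25 calcium-cycling genes 11 were lower and 4 higher on average, and 4 were lower in each genotype. By genotype 11 were lower and 2 higher in wild type, 6 and 2 in PKCδ and 12 and 1 in PKCε, while in combined hearts 6 were lower and 10 higher. With total-count scaling 8 were lower and 10 higher on average, so the balance of this list turned with the scaling too. Ryr2, the calcium release channel of the sarcoplasmic reticulum (chr13:11553099-12106945), ran from 4345 to 5535 CPM (median 4766) and from 2645 to 3641 CPM (median 3298) after TAC. No TAC library reached the unstressed range. Its changes of -0.66, -0.58, -0.52 and -0.58 in wild type, PKCδ, PKCε and combined hearts lay within 0.14 of each other, and the mean was -0.59 ± 0.04 (adjusted p = 2e-12). Atp2a2, the pump that returns calcium to the store, fell by 0.54 ± 0.05 with a range of 0.14 as well, from a median of 12154 to 8812 CPM, with ranges that overlapped. Cacnb2, a subunit of the L-type channel, fell by 0.52 ± 0.04, and Camk2a, a calcium-activated kinase, by 0.76 ± 0.06. Pln, the inhibitor of that pump, was lower on average (-0.58), but 64.7% of its exonic bases are shared with another gene.

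Sodium channel, junction and receptor genes had 14 of 26 lower and 3 higher on average. Dsg2, a desmosomal cadherin, stood at 108 to 138 CPM in unstressed and 62.2 to 91.4 CPM in TAC libraries and fell in each genotype (-0.71 ± 0.04). Tjp1, a junction scaffold, did so too (-0.41). Gja1, the main ventricular connexin, was lower on average (-0.58) and was not a shared gene. Adra1a, an α1-adrenergic receptor, was lower by -1.01 ± 0.10 with separate libraries, but its change ran from -0.41 in PKCδ to -1.71 in combined hearts (interaction adjusted p = 0.0069).

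Transcripts of fatty acid oxidation were lower in 26 of 35 cases and higher in 4, with a median of -0.34 and 7 members lower in each genotype. The count was 26 and 4 without both replicate 2 libraries and 25 and 5 with total-count scaling. The 7 act at several steps: Acsl1, which activates fatty acids, Slc25a20 and Cpt2, which carry them into mitochondria, Acadm and Hadha, which oxidise them, and Ech1 and Eci2, which handle unsaturated chains. The 4 higher members were Cpt1b (0.35 ± 0.07), Acaa1a (0.21), Acads (0.10) and Acot13 (0.10), and none was shared. Cpt1b was not called in PKCε hearts (0.17, adjusted p = 0.36), and 81.4% of its exonic bases are shared with another gene. Hadha ran from 1605 to 2208 CPM (median 1743) in unstressed and from 1136 to 1586 CPM (median 1292) in TAC libraries, just without overlap, and fell by 0.49 ± 0.04. Acadm went from a median of 941 to 672 CPM (-0.51 ± 0.05) and Acsl1 from 1045 to 677 CPM (-0.55 ± 0.05), with overlap in both. Changes among the 7 genes lay between -0.64 (Ech1) and -0.37 (Slc25a20).

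Genes of the citric acid cycle and branched-chain amino acid breakdown had 24 of 35 lower and 2 higher, which became 15 and 4 with total-count scaling. By genotype 21 were lower in wild type, 12 in PKCδ, 16 in PKCε and 8 in combined hearts. Cs, citrate synthase, fell in each genotype (-0.46 ± 0.03), as did Ivd, an enzyme of leucine breakdown (-0.44), and Ppm1k (-1.06 ± 0.05), the phosphatase that activates branched-chain keto acid breakdown. Ppm1k stood at 50.9 to 94.6 CPM in unstressed and 31.6 to 44.1 CPM in TAC libraries, without overlap. Bdh1, the mitochondrial enzyme that interconverts ketone bodies, rose in each genotype (1.60 ± 0.14), from a median of 73.8 to 268 CPM without overlap.

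The respiratory chain showed no single direction. Of 48 subunits 21 were lower and 11 higher on average, and with total-count scaling 15 were lower and 20 higher. In combined hearts 11 were lower and 13 higher, beside 17 and 3 in wild type. Ndufa5 (-0.50), Sdha (-0.38), Cox5b (-0.39) and Atp5b (-0.22) were lower in each genotype, and Cox5a (0.80 ± 0.07) and Atp5j (0.53) were higher in each. Cox5a and Cox5b belong to the same complex and moved apart. Among 20 regulators 11 were lower and 1 was higher, with Ppara (-0.39 ± 0.04) and Esrrg (-0.41 ± 0.04), nuclear receptors of energy metabolism, shared. Ppargc1a, their coactivator, fell by 0.74 in wild type, 0.45 in PKCδ and 0.41 in PKCε and was at 0.09 in combined hearts (adjusted p = 0.63; interaction adjusted p = 0.017). Without both replicate 2 libraries Ppargc1a was at -0.08 in combined hearts and the interaction adjusted p was 0.078. Esrra was at 0.01 ± 0.06 on average (adjusted p = 0.89).

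Glucose-handling genes were mixed, with 14 of 30 higher and 8 lower at a median of 0.07 (19 and 7 with total-count scaling). Ugp2, which makes the precursor of glycogen, rose in each genotype (1.14 ± 0.10), from 0.61 in wild type to 2.16 in combined hearts (interaction adjusted p = 0.00086). Pfkl (0.43) and Pgam2 (0.47) were shared, and Pdk2, a kinase that switches off pyruvate dehydrogenase, was a shared lower gene (-0.36 ± 0.04). Genes of hypertrophic signalling had 17 of 34 lower and 7 higher, and 13 and 10 with total-count scaling. Mef2a, a muscle transcription factor, fell in each genotype (-0.76 ± 0.04), as did Hdac9 (-0.55), Nfatc3 (-0.34) and Myocd (-0.52). Tbx5, a T-box factor of heart development, fell from 47.3 to 62.7 CPM in unstressed to 21.4 to 35.9 CPM in TAC libraries (-0.89 ± 0.05), by 0.97, 0.80, 0.85 and 0.95 in the 4 genotypes.

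Replication and mitosis genes had no shared direction. On average 6 of 36 were lower and the other 30 were not called, at a median of -0.03. In combined hearts 17 were lower at a median of -0.62, while the medians were 0.22 in wild type, -0.02 in PKCδ and 0.33 in PKCε. Cenpf, a centromere protein, was the 1 shared gene of the list, at 16.7 to 45.2 CPM in unstressed and 5.57 to 14.5 CPM in TAC libraries. It fell in each genotype (-1.74 ± 0.08), most in PKCδ hearts (-2.69; interaction adjusted p = 0.00035), while Mki67 (-0.07) and Top2a (0.12) were not called on average. Clock genes had 4 of 19 higher and 8 lower on average, beside 28.1% and 28.9% of all genes. By genotype 9 of the 19 were lower in wild type, 3 in PKCδ, 4 in PKCε and 2 in combined hearts. Redox genes had 9 of 27 higher and 4 lower, and 13 and 3 with total-count scaling. In redox Gstm1 (-0.61) and Sod2 (-0.39) were lower in each genotype.

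Several steep falls were found outside the lists above. Among shared lower genes with separate libraries and a log2 CPM of 2 or more, the largest change was that of Clcn1, a chloride channel known from skeletal muscle (chr6:42284851-42315764). It ran from 4.55 to 11.4 CPM (median 8.36) in unstressed and from 0.821 to 4.32 CPM (median 2.43) in TAC libraries, and fell by 1.85 ± 0.11 (adjusted p = 7.1e-14). Lgals4, a galectin (chr7:28833122-28841710), went from 12.4 to 31.6 CPM in unstressed to 3.37 to 7.98 CPM in TAC libraries, and fell by 1.78 ± 0.12. Lgals4 also had the widest gap of the lower genes, 0.63 on the log2 scale. Lgals4 and Ech1 are neighbours: the spans end at 28841710 and 28832239 on chromosome 7.

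Of the other genes with large falls, 2 encode phospholipases. Pla2g5, a secreted phospholipase A2, went from 26.1 to 49.3 CPM (median 33.5) in unstressed to 4.72 to 18.3 CPM (median 12.2) in TAC libraries and fell by 1.61 ± 0.09. Pla2g4e, a cytosolic phospholipase A2, fell by 1.37 ± 0.10. Both had separate libraries, and both differed in size among genotypes, with the steepest change in combined hearts (-2.22 and -1.80; interaction adjusted p = 0.025 and 0.024). Ces1d, a carboxylesterase (-1.50 ± 0.16), Klhl33 (-1.51 ± 0.13) and Sorcs2, a sorting receptor of the sortilin family (-1.42 ± 0.08), were of similar size.

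D830015G02Rik (chr14:54968787-54974349) fell by 1.34 ± 0.12, from 95 to 203 CPM (median 148) in unstressed to 30 to 77.7 CPM (median 60.2) in TAC libraries, without overlap. It lies between Myh6 (chr14:54941921-54968017) and Myh7 (chr14:54970684-54994626), and its span overlaps that of Myh7. Reads of overlapping exons cannot be assigned to either without strand. Its changes were -1.52, -1.07, -1.15 and -1.64 in wild type, PKCδ, PKCε and combined hearts, and unlike Myh7 it was called in PKCε (adjusted p = 0.0015).

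Among the largest shared rises outside the lists were those of secreted signals. Dkk3, a Dickkopf-family glycoprotein, went from 1.23 to 5.26 CPM (median 2.55) in unstressed to 8.69 to 34.6 CPM (median 16.4) in TAC libraries. Its change was 2.46 ± 0.19 and lay between 2.23 and 2.78 in the genotypes. Edn3, the vasoactive peptide endothelin-3, rose by 2.24 ± 0.17, from a median of 2.89 to 11.5 CPM. Libraries of the conditions were separate for both.

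**Figure D4:**
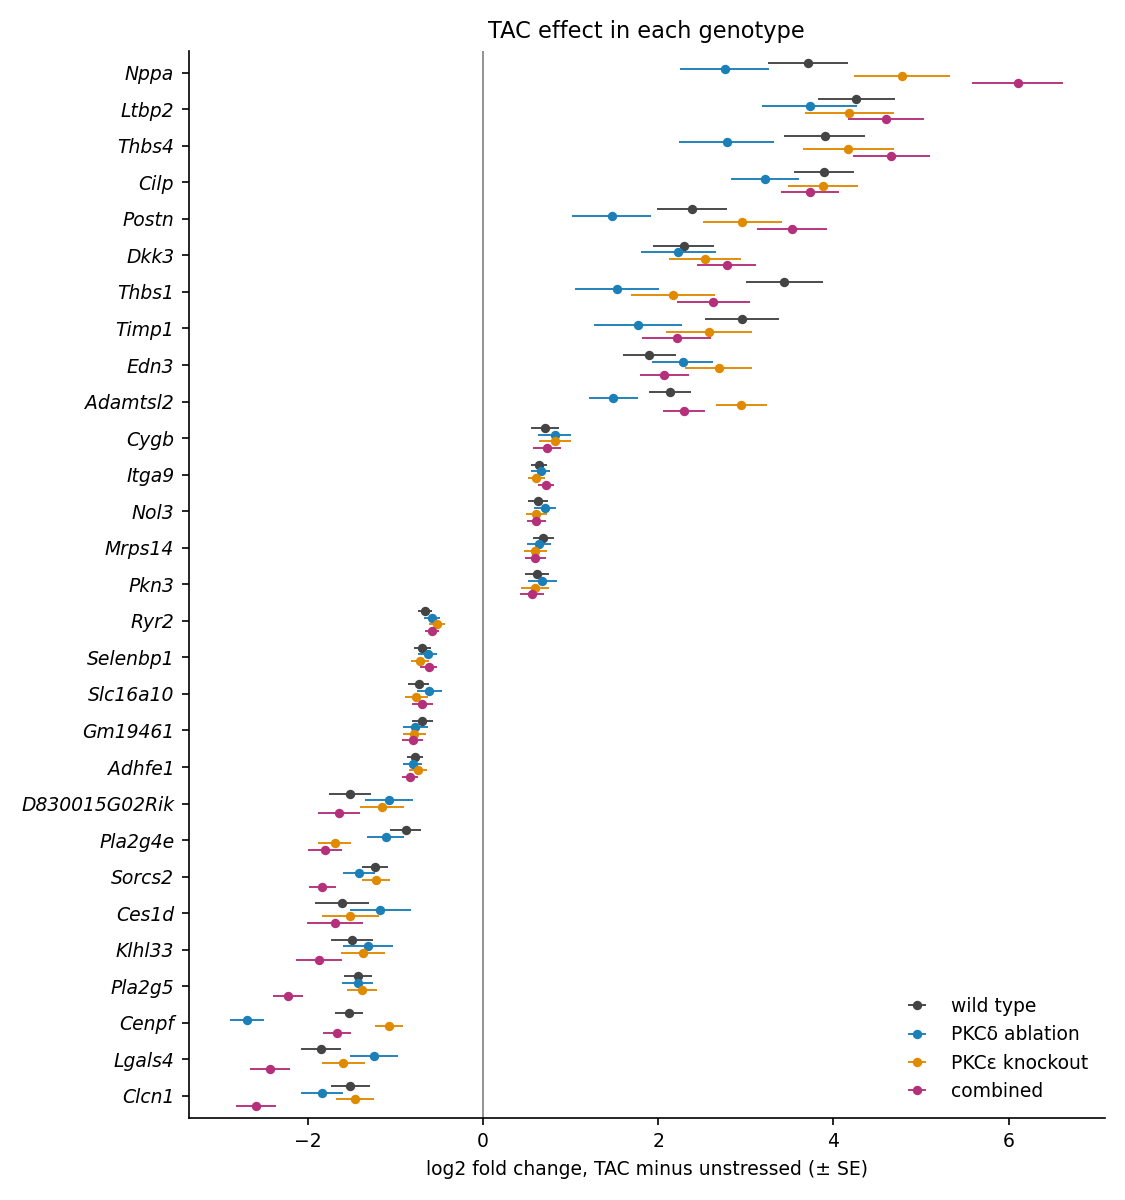
Log2 fold change between TAC and unstressed libraries (horizontal axis, points, with bars of ± SE) in each of the 4 genotypes. Shown are the 10 higher and 9 of the 10 lower genes with the largest changes and the 5 steadiest genes per direction. The largest were picked among shared genes whose libraries did not overlap between conditions. Points of 1 genotype spread widely for Nppa, from 2.76 to 6.10, and lie close together for Adhfe1 and Mrps14.

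The genes that moved most evenly were chosen for the smallest range of the 4 changes, which is therefore a description. The 5 higher genes were Mrps14, a mitochondrial ribosomal protein (0.63 ± 0.06, range 0.09), Nol3, a repressor of cell death in muscle (0.64 ± 0.06, range 0.10), Itga9, an integrin (0.66 ± 0.05), Cygb, a globin of fibroblasts (0.77 ± 0.09), and Pkn3, a kinase related to protein kinase C (0.61 ± 0.08). Mrps14 stood at 16.3 to 20.8 CPM in unstressed and 24.4 to 40 CPM in TAC libraries, without overlap. For Nol3 48.2% of the exonic bases are shared with another gene. The 5 lower genes were Adhfe1, a mitochondrial alcohol dehydrogenase (-0.78 ± 0.05, range 0.09), Selenbp1, a selenium-binding protein (-0.66 ± 0.05), Gm19461 (-0.76 ± 0.06), Ryr2 and Slc16a10, an aromatic amino acid transporter (-0.70 ± 0.06). Adhfe1 went from 55.6 to 82.3 CPM in unstressed to 34.7 to 52.3 CPM in TAC libraries, and its interaction adjusted p was 0.94.

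Called on average is not the same as shared. Of the 7827 genes called on average, 2071 had a sign that differed in at least 1 genotype, and 487 genes were called in opposite directions in at least 2 genotypes. The 4 genes with the smallest interaction p among those 2071, at a log2 CPM of 2 or more, were Gtf3c1, Timm10, Tmem116 and Igdcc4. In all 4 the unstressed combined libraries stood above the other unstressed libraries. Gtf3c1, a subunit of transcription factor IIIC, was at 241 to 286 CPM there and at 148 to 184 CPM in the other unstressed libraries, while all TAC libraries lay between 137 and 167 CPM. Its TAC change was -0.82 in combined hearts and 0.05 in wild type (interaction adjusted p = 1.2e-06). Tmem116 was at 22 to 33.5 CPM in unstressed combined libraries and at 4.28 to 10.7 CPM in the others.

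Cell composition was read from 13 marker lists, beside the 28.1% of all genes called higher and 28.9% called lower on average. In whole tissue, fewer cells of a type and less RNA per cell cannot be told apart. The cardiac muscle label held: 16 of 16 cardiomyocyte markers were tested, 7 were higher and 4 lower, and their summed level was 132852 to 149011 CPM in unstressed and 129427 to 151122 CPM in TAC libraries. Within that list Ttn, the giant spring protein titin, fell in each genotype (-0.80 ± 0.05), and Mybpc3 (0.50), Actn2 (0.44) and Myl3 (0.39) rose in each. Fibroblast markers had 8 of 18 higher and 2 lower, with a summed 2101 to 2882 CPM and 2768 to 3893 CPM after TAC. Meox1 (1.68 ± 0.14), Pi16 (1.36 ± 0.12), Mfap5 (1.75) and Col15a1 (0.80), the last 2 also matrix genes, rose in each genotype, while Pdgfra (0.23) and Tcf21 (0.37) were called on average and not in each genotype, and Dpt was at -0.02 and not called. The part of fibroblast number in the matrix changes was not tested.

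Macrophage markers were higher in 17 of 25 cases and lower in 1, with sums of 622 to 908 CPM and 690 to 1195 CPM after TAC. By genotype 20 of the 25 were higher in wild type, 5 in PKCδ and 8 in PKCε, and in combined hearts 6 were higher and 5 lower. All genes were called higher in 17.8%, 12.9%, 14.5% and 22% of cases in the same order. Trem2, a lipid receptor of macrophages, was the single member higher in each (1.11 ± 0.15). Endothelial markers had 10 of 18 higher and 2 lower (1706 to 2360 CPM and 2060 to 2507 CPM), with Tie1 (0.38 ± 0.04) in each genotype. Mural-cell markers had 4 of 15 higher and 2 lower (1618 to 2024 CPM and 1331 to 1991 CPM), no more than the shares of all genes on average.

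Other cell types were near the limit of detection or mixed. Counts of higher lymphocyte and skeletal muscle markers were near the share of all genes. Lymphocyte markers summed to 5.28 to 9.31 CPM and 5.29 to 11.2 CPM after TAC, with 2 of 7 higher, and neutrophil and mast cell markers to 15.9 to 23.2 CPM and 17.2 to 33.2 CPM, with 3 of 7 higher. Schwann cell and nerve markers fell in 6 of 9 cases and rose in 1, at a median of -0.59 (12.2 to 21.5 CPM and 8.07 to 16.1 CPM), with 6 lower in wild type, 5 in PKCε and 1 each in PKCδ and combined hearts. Erythroid and platelet markers were higher on average in 4 of 4 tested cases (12.5 to 25.3 CPM and 20.2 to 54.8 CPM). Each of the 4 had the opposite sign in 1 genotype (Slc4a1 and Alas2 in PKCδ, Pf4 in combined, Ppbp in wild type), and leaving out single libraries left as few as 2. The globin genes Hba-a1, Hba-a2, Hbb-b1 and Hbb-b2 were listed at 0 in every library. Epicardial markers had 3 of 7 higher (14.9 to 23 CPM and 17.6 to 45.2 CPM), skeletal muscle markers 3 of 9 higher and 2 lower (1491 to 2409 CPM and 1784 to 2745 CPM), and adipocyte markers 1 of 5 higher and 2 lower (271 to 506 CPM and 331 to 433 CPM). Atrial markers had 4 of 9 higher and 3 lower (162 to 281 CPM and 567 to 6988 CPM), a sum that holds Nppa. The sum is scaled to the uncorrected total, so it can lie below the CPM given for Nppa itself. Sln, an atrial marker, was at 2.44 and was not called.

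Shared higher and lower genes differed in length, a property the choice did not use. The median span was 15 kb for the shared higher, 40.5 kb for the shared lower and 23.5 kb for all genes tested, with a RefSeq span for 93.4%, 93.8% and 95.1% of all, lower and higher genes. Median exonic lengths were 3.79, 6.29 and 4.46 kb. Among genes at a log2 CPM of 4 or more the spans were 14.9, 47.6 and 26.4 kb. By genotype, genes called higher and lower had median spans of 16.4 and 38.1 kb in wild type, 14.5 and 37 kb in PKCδ and 16.4 and 37 kb in PKCε hearts. In combined hearts they were 25.3 and 22.7 kb, so the order held in 3 of the 4 genotypes. No RNA integrity value was at hand for these libraries.

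**Figure D5:**
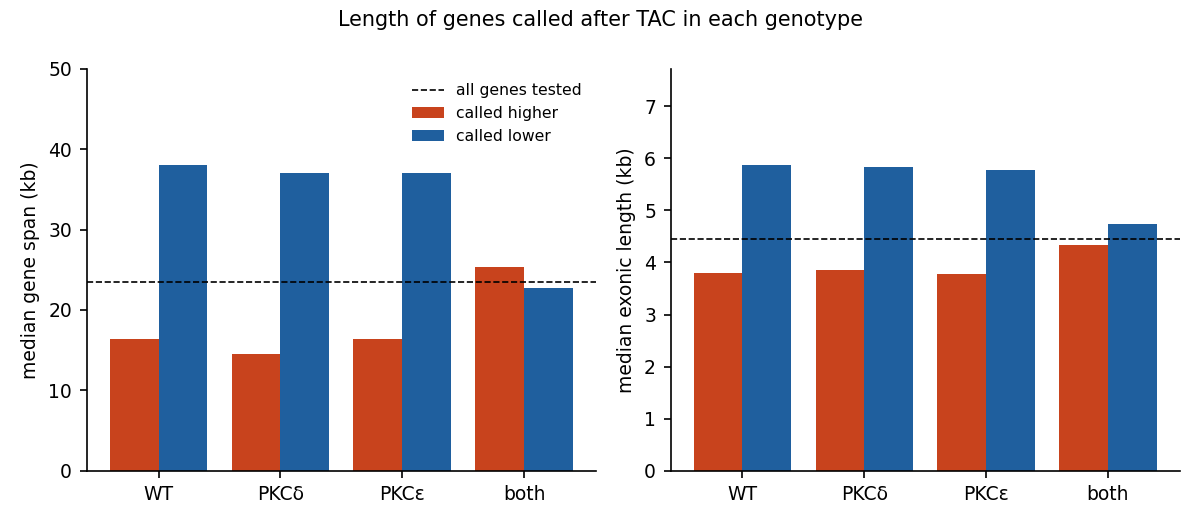
Median RefSeq gene span (left, kb) and median exonic length (right, kb) of genes called higher and lower after TAC in each genotype, with all genes tested as a dashed line; WT is wild type and both is the combined ablation. Genes called lower are longer in span than genes called higher in 3 genotypes and not in the combined ablation, where the spans are 25.3 and 22.7 kb.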

How the data were processed

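RNA came from frozen ventricular apexes and was read from 1 end with no record of strand, per the labels' protocols, though the tissue is labelled whole heart. The authors deposited raw counts for each gene symbol. TopHat2 2.0.10, Bowtie2, HTSeq and the build mm10 are named, per the submitters' processing notes, with parameters and annotation not given in the sources used here. HTSeq lists reads aligned to several places apart from genes, so near-identical copies are undercounted. Of 23418 rows, 27 with a number in place of a symbol (0.0699% to 0.085% of counts) were left out. The other 23391 matched the library files in all 29 libraries, which list 29 further genes.

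Counts were fitted with edgeR 4.0.16 (limma 3.58.1, R 4.3.3) by the quasi-likelihood test with robust dispersion, TMM scaling, a low-count filter by group, 8 group means and 21 residual degrees of freedom. Benjamini-Hochberg adjustment covered all 13742 genes. Separation used log2 CPM with a prior count of 1. The rule for named genes took Prkcd and Prkce and up to 10 shared genes per direction with the largest change. These 10 had to show no overlap between the conditions. It added up to 5 per direction with the smallest range or widest gap and up to 4 per direction of each list. With 21 cardiac genes and 4 genes of differing sign the named genes were 249 in all. Genes of a list were also named where it is described. Members and all 35 lists were chosen with earlier results of these data known. RefSeq GRCm38.p6 gave positions for 13693 genes, and GENCODE the exon overlaps. On simulated data for the mean effect (13571 genes, 200 changed) 94% of 1.5-fold and 100% of 2-fold changes were recovered, and 49.3% and 68.2% in each genotype, with 7 false of 202 calls. A few list members are not reported here by name. Alternatives included DESeq2 1.42.0. Leaving out 1 library of each close pair and a Y-linked score were added after seeing the data. Figures used matplotlib 3.10.9 in Python 3.11.15.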

Additional observations from a re-analysis of the deposited data

Results flagged for a closer look

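Among groups of 4 libraries, 25 genes named in the text were screened for a library far from the other 3, and 6 of 125 groups had one, where chance gives about 1 in 20. The values are log2 CPM. Nppb was at 9.09 in wild-type TAC replicate 2 and 8.44 to 8.52 in the others. Postn was at 4.40 in unstressed wild-type replicate 3, against 4.21 to 4.24. Atp2a2 was at 13.28 in unstressed combined replicate 1, against 13.43 to 13.46, and at 13.15 in wild-type TAC replicate 4, against 12.88 to 12.90. Hadha was at 10.44 in combined TAC replicate 2, the library whose Prkce level goes against its label, against 10.15 to 10.20. Igdcc4 was at 4.40 in unstressed wild-type replicate 4, against 4.57 to 4.61.

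The size of the TAC effect differed among the 4 genotypes for 13 of these genes, by the interaction F test of edgeR with Benjamini-Hochberg adjustment. Of all genes tested that test called 23.4%. The adjusted p was 0.0039 for Nppa, 0.019 for Nppb, 0.029 for Acta1, 0.031 for Tgfb2 and 0.048 for Kcnj2, all shared genes with the same direction in each genotype. Without both replicate 2 libraries in doubt it was 0.074 for Acta1, 0.13 for Kcnj2 and 0.078 for Ppargc1a, and below 0.05 for the other 10 genes. It was 3.4e-05 for Myh7, 0.019 for Myh6, 0.017 for Ppargc1a and 0.012 for Esrra. For the genes whose direction differed it was 1.2e-06 for Gtf3c1, 1.2e-06 for Timm10, 1.4e-06 for Tmem116 and 4.9e-06 for Igdcc4. These 4 were picked for a small interaction p, so their place among the 13 was fixed by the choice.

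Reads aligned to more than 1 place, which no comparison used, made up at least 10.97% of reads in each TAC library and at most 9.57% in each unstressed library.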

How the results depend on the processing

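The number of shared genes, 1221, was 634 with only libraries labelled M and 690 at an adjusted p of 0.01. Genes whose effect differed among genotypes, 3210, were 434 with only libraries labelled M and 1822 without 1 library of each close pair. With total-count scaling the separated genes were 576 higher and 140 lower, in place of 361 and 321. Libraries labelled M leave 1 TAC library each for the PKCδ and combined ablations, assumed to vary like the other groups, and transcripts go against many of these labels. What caused these changes in number was not tested. With the sex label as a term, which keeps all 29 libraries, there were 1084 shared genes and 2397 genes with differing effects. Leaving out each library in turn gave 7531 to 8034 genes called on average, 1003 to 1381 shared genes and 2510 to 3478 with differing effects. Of the 1221 shared genes, 1143 remained without both replicate 2 libraries in doubt, 807 without 1 of each close pair and 586 with only libraries labelled M.

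The replicate number as a block gave 7779, 1188 and 3096. The labels do not say that numbers pair libraries, and deviations of same-numbered libraries were uncorrelated (median r -0.01, from -0.23 to 0.17 over 94 pairs). Of 249 named genes none reversed on average in any setting, and 33 lost a call in at least 1, among them Myh6, Myl7, Timm10 and Igdcc4. Small changes can be missed: in simulation 49.3% of 1.5-fold changes were called in each of 4 genotypes. That simulation gave 202 calls on average among 13571 genes, while the data gave 7827 among 13742. With so many more genes called in the data, the simulated share does not measure what was missed there.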
